A study of Mus musculus with 29 samples.

Results

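The comparison described here is that of RNA in Tbr2-positive nuclei with RNA in Tbr2-negative nuclei of the mouse embryonic cortex at E16.5, both treated with vehicle, the carrier without the drug. Its members are 20078 genes, of 48709 gene identifiers in the count files, which passed a filter on low counts. The samples are 6 RNA-seq libraries, 3 of Tbr2-positive and 3 of Tbr2-negative nuclei, of 29 samples in the whole series. The other samples used here were 4 RNA libraries treated with the histone deacetylase inhibitor TSA (2 Tbr2-positive and 2 Tbr2-negative) and 7 vehicle chromatin immunoprecipitation libraries for acetylation of histone H3 at lysine 9 (3 Tbr2-positive and 4 Tbr2-negative). The design text states that nuclei were separated by fluorescence-activated sorting for Tbr2 protein, so the names Tbr2_pos and Tbr2_neg, which the labels give under the tag genotype, refer to sorted populations. The protocol field of the same samples describes extraction of total RNA with TRIZOL from whole tissue, and the difference between these statements could not be resolved from the sources. The labels do not say whether the replicates came from separate embryos or litters, so p-values measure the spread between these libraries.

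Tbr2, the protein of the gene Eomes, is a T-box transcription factor that marks the basal or intermediate progenitors of the cortex. These cells arise from radial glia at the ventricular surface, divide away from it in the subventricular zone and give rise to glutamatergic neurons. A Tbr2-negative sort of the same tissue can hold every other cell type of the cortex, such as radial glia, older excitatory neurons, interneurons that migrated in from the ventral forebrain, and glial precursors. In bulk RNA, fewer cells of a type and less RNA per cell cannot be told apart.

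The 6 vehicle libraries held between 18567111 and 24106766 counts on genes. The summed level of 11 basal progenitor markers was 1800 to 2400 CPM (counts scaled to a common library total, with a correction for composition) in Tbr2-positive libraries and 279 to 430 CPM in Tbr2-negative libraries. Eomes itself, the sorted marker, had 409.9, 371 and 548 CPM in Tbr2-positive nuclei, against 22, 13.9 and 18.2 CPM in Tbr2-negative nuclei. Among markers of other cell types, 10 excitatory neuron markers summed to 2150 to 3190 CPM in positive and 3580 to 4870 CPM in negative libraries, with 8 lower, and 10 radial glia markers to 1010 to 1310 against 838 to 892 CPM, with 2 higher. The 9 interneuron markers summed to 93.9 to 196 against 599 to 673 CPM, with 9 of 9 lower, and 6 oligodendrocyte precursor markers to 6.82 to 13.6 against 40.8 to 66.3 CPM, with 5 of 6 lower. For 7 vascular and meningeal markers the sums were 16.3 to 36.9 against 19 to 29 CPM and none was called, for 6 microglial markers 11.8 to 21.2 against 28.2 to 46 CPM with 2 lower, and for 4 erythroid markers 283 to 452 against 481 to 699 CPM with none called. No marker on these lists was without counts in either population, and the part of other cell types in the differences below was not tested. For 4 Cajal-Retzius cell markers the sums were 104 to 192 CPM in positive and 208 to 269 CPM in negative libraries, with 1 lower. A longer list of 8 markers of these cells leaned the other way, its median being 0.63 on the log2 scale. Of these 8, Nhlh2 and Calb2 were called higher and Reln lower. The Reln call did not hold without positive replicate 2 or 3, or without any 1 of the negative replicates. The share of counts on mitochondrially encoded genes was 0.0979% to 0.306% in positive and 0.114% to 0.283% in negative libraries.

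Differences were tested gene by gene with edgeR's quasi-likelihood test and Benjamini-Hochberg adjustment over all 20078 genes, and a gene is called here when its adjusted p was below 0.05. By this rule 1999 genes were higher and 2304 lower in Tbr2-positive nuclei, 21.4% of those tested (9.96% higher and 11.5% lower), and the median log2 fold change of all genes was -0.05. The ranges of the 3 and 3 libraries did not overlap for 39.7% of genes tested. Each gene list below is described by its called members, to be read beside these shares. Of 409 genes that met the rule for naming, 324 kept their call when any 1 of the 10 RNA libraries was left out. The genes given with values below kept their call in each of those fits unless the text says otherwise, and the ranges of their 3 positive and 3 negative values did not overlap. Means are given with SDs over 3 libraries in each population, log2 fold changes with standard errors and with Tbr2-positive over Tbr2-negative as their direction.

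**Figure D1:**
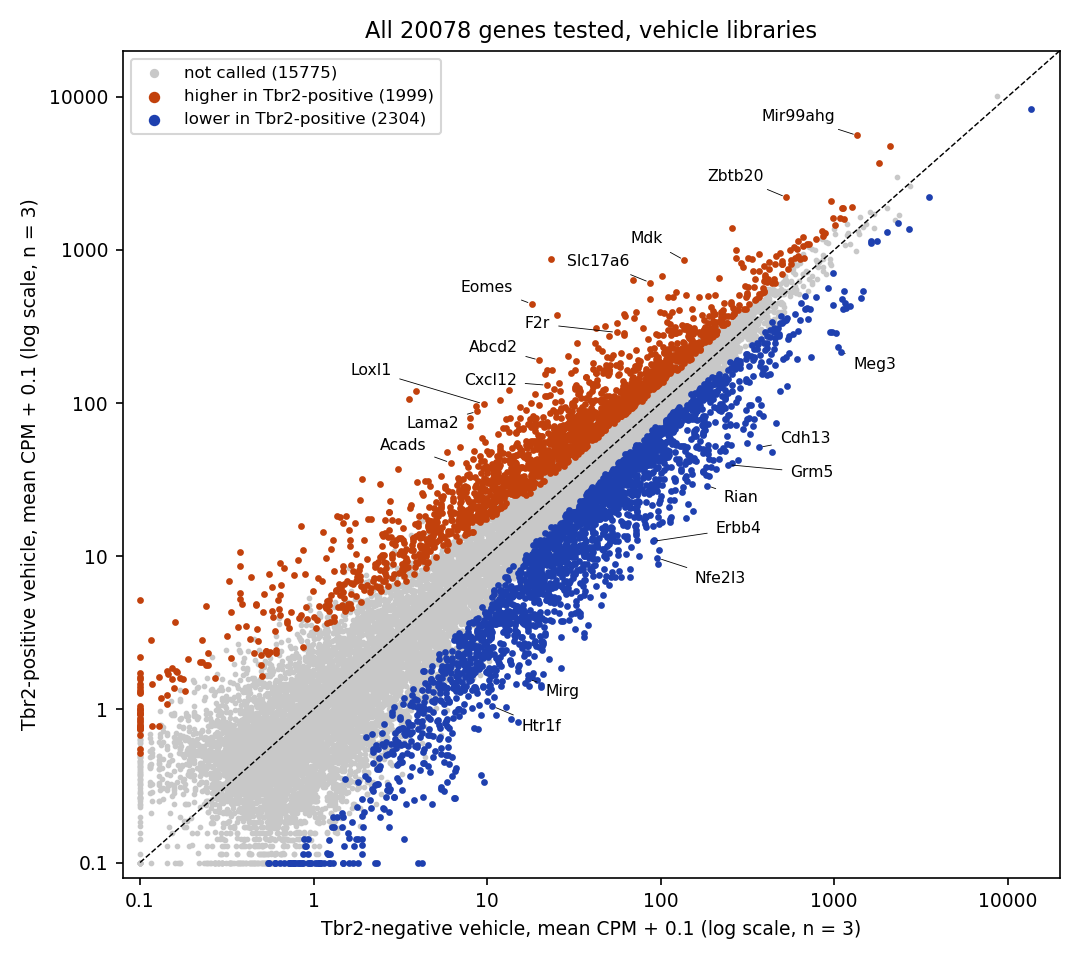
Mean CPM of each of the 20078 genes tested in Tbr2-positive (vertical axis) and Tbr2-negative (horizontal axis) vehicle nuclei, 3 libraries each, on log scales after adding 0.1; the dashed line marks equal levels. The 1999 genes called higher lie above the line and the 2304 called lower below it, with genes described in the text labelled.

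Among metabotropic glutamate, monoamine and muscarinic receptor genes, those that passed the test were lower in Tbr2-positive nuclei in all cases but 1. Of 7 metabotropic glutamate receptor genes tested, which encode receptors that signal glutamate through G proteins, 5 were lower and 0 higher, with a median log2 fold change of -1.89. Grm5, the receptor coupled to calcium release, averaged 39.5 ± 25.7 CPM in Tbr2-positive and 244 ± 70.5 CPM in Tbr2-negative nuclei. All 3 positive libraries were under all 3 negative ones, the nearest pair differing 2.42-fold (log2 fold change -2.62 ± 0.41, adjusted p = 0.000564). Grm3, an inhibitory member of the family, had 10.7, 18.3 and 4.14 CPM in Tbr2-positive nuclei, against 33.9, 60 and 44.4 CPM in Tbr2-negative nuclei. Among 28 monoamine and muscarinic receptor genes, 10 were lower and 1 higher, with a median of -2.31. The serotonin receptor gene Htr1f had 0.885, 1.52 and 0.44 CPM in Tbr2-positive nuclei, against 12.8, 12.3 and 6.57 CPM in Tbr2-negative nuclei, an 11-fold lower level in the positive nuclei (adjusted p = 0.000417). Its relative Htr1b averaged 0.156 ± 0.129 CPM in Tbr2-positive and 3.68 ± 1.63 CPM in Tbr2-negative nuclei. The only member of this list called higher was Adra2c, an inhibitory adrenergic receptor gene, at 7.27 ± 2.87 against 2.53 ± 0.598 CPM. That call did not hold without positive replicate 3, negative replicate 2 or negative replicate 3 (adjusted p = 0.0788, 0.0639 and 0.0579).

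Receptors for peptides were lower in 11 of 49 cases, or 17 with DESeq2, and higher in 1. The higher count was 2 with DESeq2, without the low-count filter and without either of the TSA-treated positive replicates. Ntsr1, the neurotensin receptor that marks corticothalamic neurons in the mouse, had 2.82, 8.41 and 2.95 CPM in Tbr2-positive nuclei, against 53.2, 47.1 and 34.9 CPM in Tbr2-negative nuclei. The lowest negative library was 4.15 times the highest positive one (log2 fold change -3.25 ± 0.38, adjusted p = 7.8e-05). Npy1r, a neuropeptide Y receptor gene, averaged 3.69 ± 2.91 CPM in Tbr2-positive and 26.5 ± 6.74 CPM in Tbr2-negative nuclei. The somatostatin receptor gene Sstr2 was the member called higher. Sst, which encodes somatostatin, ran the other way, at 23.1 ± 7.97 CPM in Tbr2-positive and 119 ± 11.7 CPM in Tbr2-negative nuclei. Npy was lower, as its receptor gene Npy1r was, at 43.2 ± 21.6 CPM in Tbr2-positive and 190.5 ± 56.6 CPM in Tbr2-negative nuclei. Sst and Npy are also products of interneurons, whose markers were lower in the same libraries, and the part of that in these values was not tested.

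Receptors for lipids, proteases and chemokines included genes that were higher. F2r, the thrombin receptor of the protease-activated family, had 298, 242 and 326 CPM in Tbr2-positive nuclei, against 64.2, 50.3 and 52.5 CPM in Tbr2-negative nuclei. Even the nearest positive and negative libraries differed 3.77-fold (log2 fold change 2.38 ± 0.17, adjusted p = 5.71e-06). The lysophosphatidic acid receptor genes Lpar6 and Lpar4 averaged 69.1 ± 15.7 CPM in Tbr2-positive and 15.9 ± 7.02 CPM in Tbr2-negative nuclei for Lpar6 and 28.3 ± 9.41 CPM in Tbr2-positive and 7.16 ± 1.97 CPM in Tbr2-negative nuclei for Lpar4. Cnr1, the cannabinoid receptor gene, went the other way at 274 ± 17.8 CPM in Tbr2-positive and 546 ± 94.5 CPM in Tbr2-negative nuclei, as did the adenosine receptor gene Adora1 at 12.7 ± 4.41 CPM in Tbr2-positive and 42.5 ± 10.7 CPM in Tbr2-negative nuclei. Of 27 genes in this list, 4 were higher and 2 lower, with 4 lower without positive replicate 1 and with DESeq2.

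The chemokine axis of Cxcl12 split by component. Cxcl12 encodes the ligand, which is known to guide migrating cortical cells, Cxcr4 its signalling receptor and Ackr3 a receptor that removes the ligand. Cxcl12 had 114, 142 and 136 CPM in Tbr2-positive nuclei, against 27.7, 17.6 and 21.1 CPM in Tbr2-negative nuclei. The lowest positive library was 4.11 times the highest negative one (log2 fold change 2.56 ± 0.19, adjusted p = 6.46e-06). Cxcr4 was 1.92-fold higher, with 69.2, 42.9 and 63.7 CPM in positive and 33.3, 31.4 and 26.9 CPM in negative libraries. Ackr3 was 5.34-fold lower, with 18.9, 27.1 and 17.2 CPM in positive and 138, 96 and 103 CPM in negative libraries. Of 25 chemokine ligand and receptor genes tested, 2 were higher and 5 lower. The lower ones included Cx3cl1, a membrane-bound chemokine of neurons, at 10.8 ± 5.66 against 46.4 ± 16.9 CPM, and Cx3cr1, its receptor on microglia, at 2.28 ± 0.735 against 7.42 ± 1.33 CPM, in the order Tbr2-positive against Tbr2-negative.

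Adhesion receptors and receptor kinases were mixed. Adgrg1, an adhesion G protein-coupled receptor whose loss is known to cause a cortical malformation in human, had 531, 369 and 570.2 CPM in Tbr2-positive nuclei, against 157, 84.2 and 114 CPM in Tbr2-negative nuclei. Replicate 2 of the positive nuclei was the lowest of the 3 and still 2.35 times the highest negative library (log2 fold change 2.05 ± 0.22, adjusted p = 4.88e-05). Adgrl3, a synaptic member of that class, averaged 47.3 ± 5.8 CPM in Tbr2-positive and 174 ± 30 CPM in Tbr2-negative nuclei, and Adgrb3, another, 155 ± 22.7 CPM in Tbr2-positive and 383 ± 55.1 CPM in Tbr2-negative nuclei. Ddr1, a receptor kinase activated by collagen, had 541, 414 and 643 CPM in Tbr2-positive nuclei, against 151, 79.7 and 135 CPM in Tbr2-negative nuclei (log2 fold change 2.12 ± 0.26, adjusted p = 0.000107). Ptk7, a receptor of planar cell polarity, was 4-fold higher at 45.2 ± 7.11 against 11.3 ± 4.73 CPM. Met, the receptor for hepatocyte growth factor, was 7.46-fold lower at 4.07 ± 1.71 against 30.4 ± 5.1 CPM, and Erbb4, a neuregulin receptor, was 7.25-fold lower at 12.4 ± 3.07 against 90.3 ± 19.5 CPM. Of the 38 receptor kinase genes outside the Eph family, 3 were higher and 6 lower.

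Eph receptors and ephrins, which repel or attract cells on contact, had 6 members called in each direction among 21. Epha4 had 781, 688 and 1200.4 CPM in Tbr2-positive nuclei, against 274, 261 and 280.4 CPM in Tbr2-negative nuclei. The positive libraries spread widely but stayed above the negative ones (log2 fold change 1.71 ± 0.19, adjusted p = 5.44e-05). Epha3 averaged 946 ± 97.5 CPM in Tbr2-positive and 368 ± 43.7 CPM in Tbr2-negative nuclei, and the vascular and neural receptor gene Ephb4 18.4 ± 2.88 CPM in Tbr2-positive and 7.54 ± 0.464 CPM in Tbr2-negative nuclei. Lower were the receptor gene Epha6, at 2.16 ± 0.354 against 9.76 ± 1.63 CPM, and the ligand gene Efna3, at 12 ± 0.738 against 36 ± 1.7 CPM. Of 28 genes of Wnt receptors and modulators, 3 were higher and 1 lower (14.3%), a smaller share than the 21.4% of all genes tested. When 1 library was left out, 2 to 3 were higher and 0 to 1 lower. Among the higher ones, Fzd2 was 3.39-fold higher at 88.9 ± 24.4 against 26.2 ± 8.18 CPM. Fzd3 was 2.33-fold higher at 104 ± 14.8 against 44.7 ± 10.3 CPM. The bone morphogenetic protein receptor gene Bmpr1a was 1.92-fold higher, at 119 ± 29.6 against 62.3 ± 15.4 CPM, whereas Acvr1, a second type I receptor of that pathway, was 2.98-fold lower, at 20.9 ± 0.779 against 62.4 ± 8.95 CPM.

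**Figure D2:**
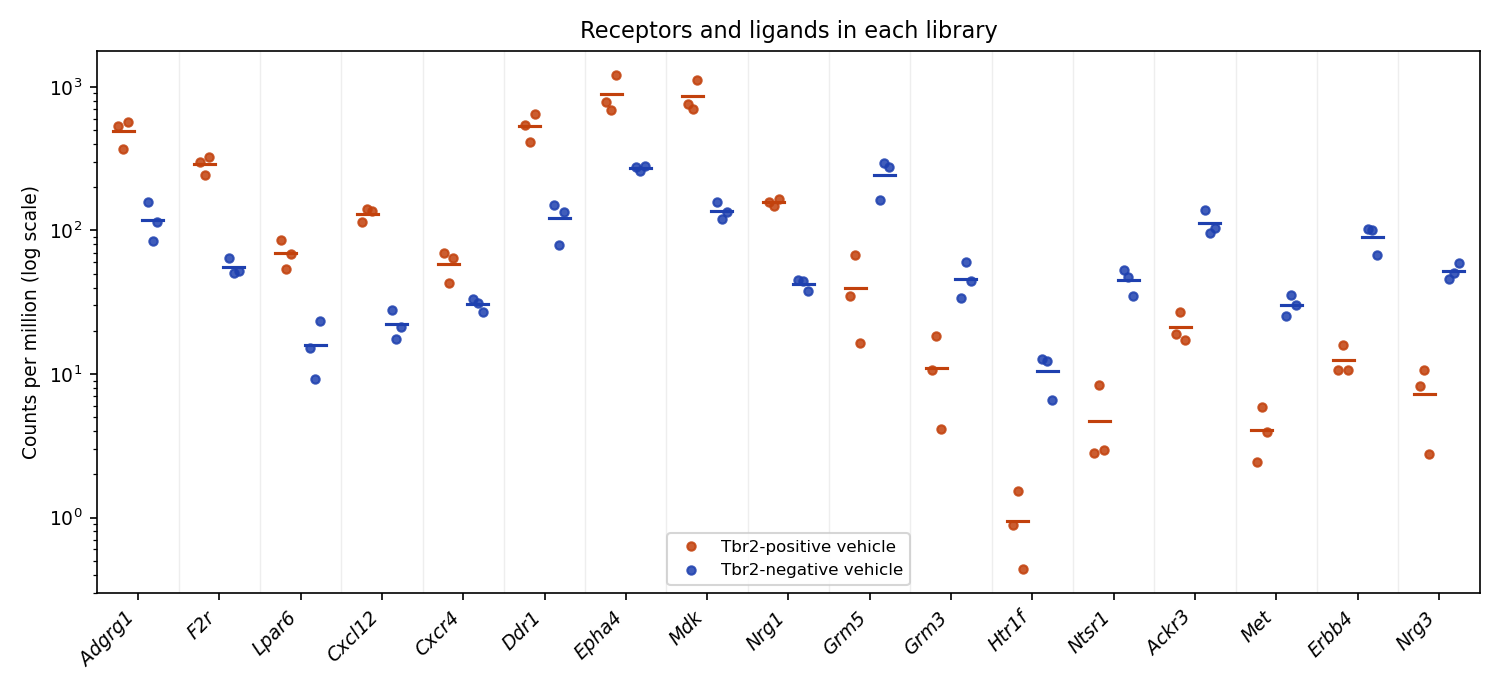
CPM (log scale) of 17 receptor and ligand genes in each vehicle library; in each column the 3 Tbr2-positive libraries stand left of the 3 Tbr2-negative ones, and bars mark means. The ranges of both populations are apart for each gene, with Adgrg1 to Nrg1 higher and Grm5 to Nrg3 lower in Tbr2-positive nuclei.

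Secreted growth factors were called lower in 17 of 53 cases and higher in 4. The lower count was 11 without positive replicate 3 and 11 without negative replicate 3. Mdk, the heparin-binding growth factor midkine, had 763, 698 and 1109 CPM in Tbr2-positive nuclei, against 158, 119 and 134 CPM in Tbr2-negative nuclei. Every positive library was at least 4.43 times every negative one (log2 fold change 2.65 ± 0.19, adjusted p = 5.71e-06). The neuregulin genes, whose products are ligands of Erbb receptors, took opposite directions. Nrg1 had 158, 148 and 166 CPM in Tbr2-positive nuclei, against 45.4, 44.5 and 37.8 CPM in Tbr2-negative nuclei (log2 fold change 1.88 ± 0.14, adjusted p = 6.46e-06). Nrg3 had 8.21, 10.6 and 2.77 CPM in Tbr2-positive nuclei, against 46, 50.8 and 59 CPM in Tbr2-negative nuclei (log2 fold change -2.85 ± 0.38, adjusted p = 0.000197). The ranges of both genes were apart by more than their width, in opposite directions. Inhbb, a subunit of activin B, averaged 52.4 ± 2.2 CPM in Tbr2-positive and 17 ± 3.84 CPM in Tbr2-negative nuclei. Neuropeptide precursor genes were lower in 13 of 30 cases, or 8 without positive replicate 3, and Chga, the granule protein chromogranin A, was one of 2 called higher, at 229 ± 54.2 against 91.3 ± 18.6 CPM.

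Voltage-gated sodium and calcium channel genes, the basis of the action potential and of transmitter release, were mostly lower. Of 34 tested, 22 were lower and 1 higher, with a median log2 fold change of -1.19. Cacna1b, the pore of the N-type calcium channel, had 16, 17.4 and 14.5 CPM in Tbr2-positive nuclei, against 76.1, 68.5 and 72.3 CPM in Tbr2-negative nuclei. Libraries of 1 population lay close together, and the nearest of the other differed 3.94-fold (log2 fold change -2.18 ± 0.16, adjusted p = 5.71e-06). Scn9a, a sodium channel gene, averaged 15.7 ± 5.53 CPM in Tbr2-positive and 90 ± 18.2 CPM in Tbr2-negative nuclei, and the R-type calcium channel gene Cacna1e 34.1 ± 4.54 CPM in Tbr2-positive and 152 ± 40.3 CPM in Tbr2-negative nuclei. The single member higher was Cacng5, an auxiliary subunit gene of the calcium channel and AMPA receptor family, at 29.2 ± 12.4 against 8.48 ± 2.8 CPM.

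**Figure D3:**
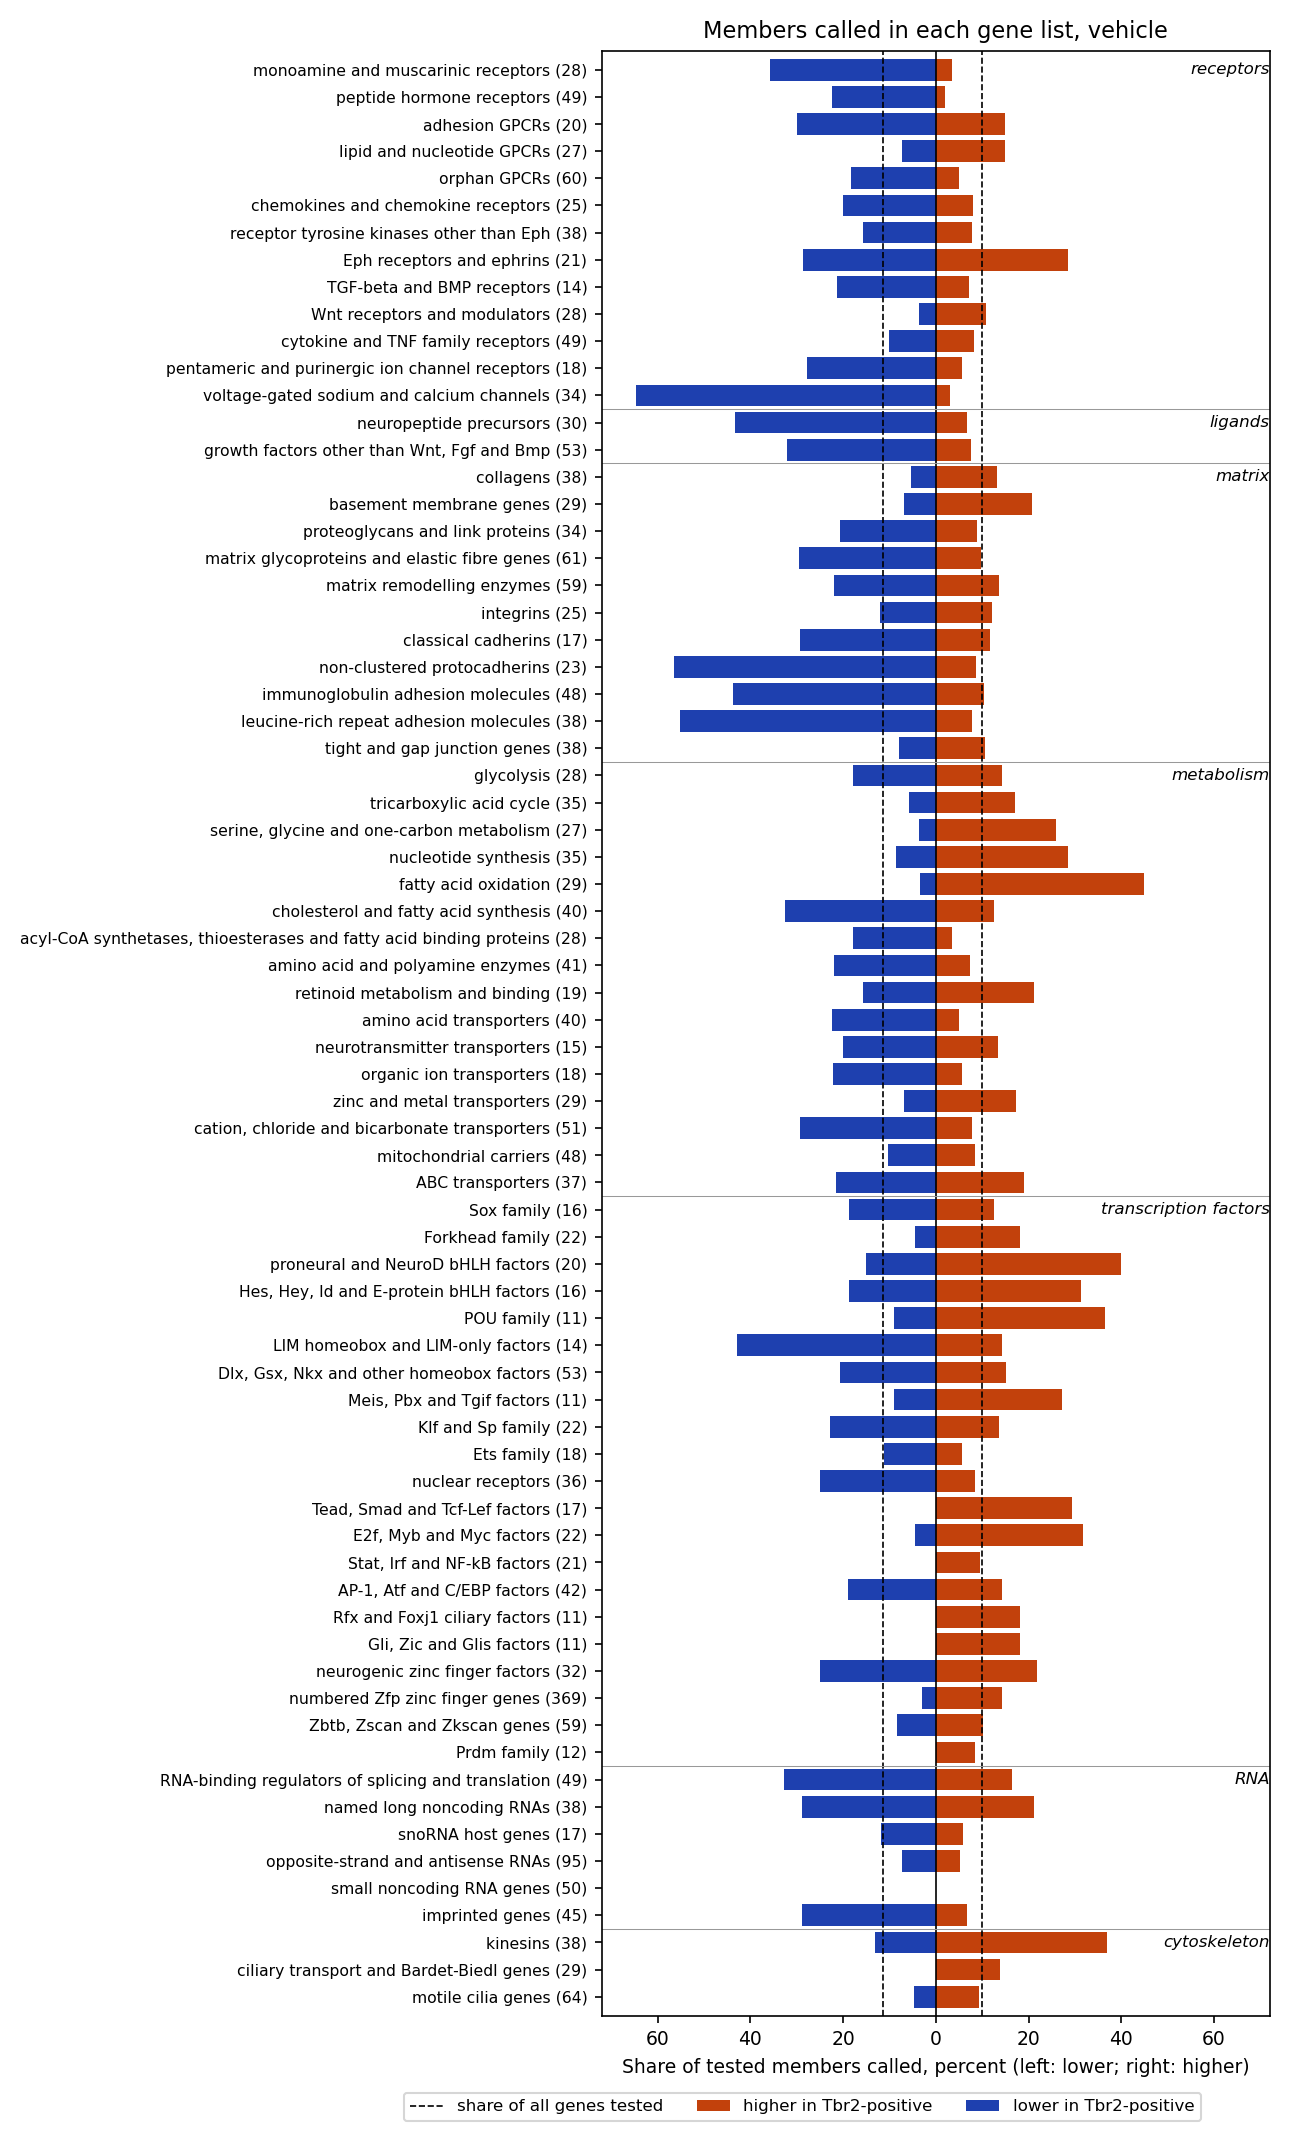
Share of tested members of each gene list called lower (left) and higher (right) in Tbr2-positive nuclei, in percent, for the lists shown, each with at least 11 members tested (number in brackets); dashed lines mark the shares of all genes tested, 11.5% lower and 9.96% higher. Voltage-gated channel, protocadherin and leucine-rich repeat lists reach farthest to the left, and fatty acid oxidation, proneural factor and kinesin lists farthest to the right.

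Genes of the extracellular matrix were called in both directions. Basement membrane genes were higher in 6 of 29 cases and lower in 2. The lower count was 1 without positive replicate 1, positive replicate 2 or negative replicate 1, and 4 with DESeq2 or with the 6 vehicle libraries alone. Lama2, a laminin chain of basement membranes, had 114, 71.8 and 77.6 CPM in Tbr2-positive nuclei, against 8.07, 9.69 and 8.24 CPM in Tbr2-negative nuclei. The lowest positive library was 7.41 times the highest negative one (log2 fold change 3.34 ± 0.21, adjusted p = 1.84e-06). Another laminin chain gene, Lama5, averaged 11 ± 5.36 CPM in Tbr2-positive and 1.16 ± 0.662 CPM in Tbr2-negative nuclei, and Frem1, an adaptor of the epithelial basement membrane, 19.4 ± 7.07 CPM in Tbr2-positive and 2.61 ± 2.63 CPM in Tbr2-negative nuclei. Of 38 collagen genes, 5 were higher and 2 lower (18.4%), against 21.4% of all genes tested. When 1 library was left out, 4 to 6 were higher and 1 to 4 lower. Col4a5, a basement membrane collagen chain, was 6.09-fold higher at 21.6 ± 3.55 against 3.53 ± 1.78 CPM. Col25a1, a transmembrane collagen of neurons, was 2.55-fold lower at 4.51 ± 0.811 against 11.5 ± 2.61 CPM.

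Genes of elastic fibres and microfibrils stood at both extremes. Mfap2, a microfibril protein that binds fibrillin, had 959, 727 and 1316 CPM in Tbr2-positive nuclei, against 304, 218 and 289 CPM in Tbr2-negative nuclei. Positive libraries varied more than negative ones, and their lowest was 2.39 times the highest negative library (log2 fold change 1.89 ± 0.21, adjusted p = 5.92e-05). Ltbp3, which holds latent TGF-beta in the matrix, averaged 71.9 ± 8.41 CPM in Tbr2-positive and 17.8 ± 9.69 CPM in Tbr2-negative nuclei. Loxl1, an enzyme that crosslinks elastin, had 112, 77.5 and 106 CPM in Tbr2-positive nuclei, against 13.6, 6.6 and 8.15 CPM in Tbr2-negative nuclei (log2 fold change 3.38 ± 0.26, adjusted p = 6.46e-06). The fibrillin gene Fbn2, by contrast, had 5.73, 9.36 and 6.65 CPM in Tbr2-positive nuclei, against 63, 53.1 and 60 CPM in Tbr2-negative nuclei (log2 fold change -3.02 ± 0.28, adjusted p = 1.67e-05). The nearest Fbn2 libraries of both populations differed 5.67-fold. Thbs1, a thrombospondin released by glia that is known to promote synapses, averaged 4.3 ± 1.88 CPM in Tbr2-positive and 33.3 ± 5.38 CPM in Tbr2-negative nuclei. Of 61 matrix glycoprotein and elastic fibre genes, 6 were higher and 18 lower.

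Proteases of the Adamts family, which cut proteoglycans and procollagen, changed member by member. Adamts6 averaged 25.8 ± 12.3 CPM in Tbr2-positive and 5.06 ± 1.83 CPM in Tbr2-negative nuclei, and Adamts19 16.3 ± 10.1 CPM in Tbr2-positive and 1.38 ± 1.18 CPM in Tbr2-negative nuclei. Lower were Adamts3, at 2.85 ± 1.59 against 14.4 ± 4.81 CPM, and Adamts20, at 3.64 ± 0.928 against 17.2 ± 2.75 CPM. The remodelling list as a whole had 8 higher and 13 lower of 59, with 5 higher without negative replicate 2. Proteoglycans lower in the positive nuclei included Cspg5, also called neuroglycan C, with 16.7, 26.3 and 10.4 CPM in positive and 124, 86.5 and 131 CPM in negative libraries, and Spock1, or testican, with 15.7, 13.7 and 8.63 CPM in positive and 89.4, 71.2 and 113 CPM in negative libraries. The fitted decrease was 6.39-fold for Cspg5 and 7.19-fold for Spock1.

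Integrins, the cell-surface receptors of matrix proteins, had 3 of 25 members called higher, a share near that of all genes. Itgb1, the beta chain shared by most matrix-binding integrins, had 201, 167 and 232 CPM in Tbr2-positive nuclei, against 94.8, 70.1 and 85.2 CPM in Tbr2-negative nuclei (log2 fold change 1.26 ± 0.16, adjusted p = 0.000163). Its alpha partners Itga4 and Itga9 averaged 40.4 ± 14.5 CPM in Tbr2-positive and 7.5 ± 1.22 CPM in Tbr2-negative nuclei for Itga4 and 7.96 ± 0.906 CPM in Tbr2-positive and 1.38 ± 1.02 CPM in Tbr2-negative nuclei for Itga9. The 3 integrin genes called lower did not keep their calls: between 0 and 2 were lower when 1 library was left out, with 0 without positive replicate 2, positive replicate 3, negative replicate 2 or negative replicate 3.

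Many cell-cell adhesion genes were lower: 13 of 23 in the list of protocadherins and related cadherins, 21 of 48 immunoglobulin-type molecules and 21 of 38 leucine-rich repeat molecules, against 11.5% of all genes. Cdh11, a classical cadherin gene, had 25.9, 31.4 and 30.6 CPM in Tbr2-positive nuclei, against 137, 159 and 161 CPM in Tbr2-negative nuclei. The lowest negative library was 4.35 times the highest positive one (log2 fold change -2.38 ± 0.14, adjusted p = 1.6e-06). Opcml, a neuronal immunoglobulin-type molecule, averaged 73.9 ± 24.4 CPM in Tbr2-positive and 461 ± 101 CPM in Tbr2-negative nuclei, and Lrfn5, a synaptic leucine-rich repeat molecule, 42.5 ± 18.7 CPM in Tbr2-positive and 279 ± 67.1 CPM in Tbr2-negative nuclei. Against this direction, Celsr1, a seven-pass cadherin of planar cell polarity, had 223, 197 and 316 CPM in Tbr2-positive nuclei, against 53.2, 20.2 and 24.9 CPM in Tbr2-negative nuclei (log2 fold change 2.90 ± 0.32, adjusted p = 5.92e-05). Igsf8, a partner of tetraspanins and integrins, had 1679.8, 970.4 and 1509 CPM in Tbr2-positive nuclei, against 308, 151 and 309.8 CPM in Tbr2-negative nuclei (log2 fold change 2.44 ± 0.28, adjusted p = 6.8e-05). The leucine-rich repeat gene Flrt1 averaged 127 ± 41.5 CPM in Tbr2-positive and 32.1 ± 4.39 CPM in Tbr2-negative nuclei.

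Genes of mitochondrial fatty acid oxidation were called higher in 13 of 29 cases and lower in 1, with a median log2 fold change of 0.69. Without 1 of the libraries the higher count ranged between 11 and 15. Those called cover import into mitochondria, the steps of the cycle and electron transfer. Acads, the dehydrogenase for short-chain acyl-CoA, had 38.8, 34.1 and 48.9 CPM in Tbr2-positive nuclei, against 7.01, 4.9 and 6.3 CPM in Tbr2-negative nuclei. The lowest positive value was 4.86 times the highest negative value (log2 fold change 2.74 ± 0.24, adjusted p = 1.09e-05). For import, Cpt2, the inner-membrane carnitine transferase, averaged 23.9 ± 4.63 CPM in Tbr2-positive and 7.53 ± 3.83 CPM in Tbr2-negative nuclei, and Slc25a20, the carnitine carrier, 44.9 ± 6.69 CPM in Tbr2-positive and 24.4 ± 5.45 CPM in Tbr2-negative nuclei. For the cycle, the very-long-chain dehydrogenase gene Acadvl averaged 57.3 ± 3.74 CPM in Tbr2-positive and 24.9 ± 1.25 CPM in Tbr2-negative nuclei, the hydroxyacyl dehydrogenase gene Hadh 26.7 ± 2.1 CPM in Tbr2-positive and 10.2 ± 1.53 CPM in Tbr2-negative nuclei, and the thiolase gene Acaa2 58.2 ± 8.44 CPM in Tbr2-positive and 29.8 ± 4 CPM in Tbr2-negative nuclei. Eci1 and Eci2, isomerases for unsaturated chains, were 3.01-fold and 2.57-fold higher, and Etfa, which passes the electrons on, was 2.28-fold higher. The member called lower was Ppargc1a, a coactivator of mitochondrial genes, at 6.08 ± 2.91 against 13.4 ± 3.25 CPM. That call did not hold without positive replicate 1 (adjusted p = 0.152), positive replicate 2 (0.132), negative replicate 1 (0.133) or negative replicate 2 (0.108), nor without either of the TSA-treated negative replicates, with the 6 vehicle libraries alone or with replicate number as a block.

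For synthesis of cholesterol and fatty acids, 13 of 40 genes were lower and 5 higher, with a median of -0.38. The higher count was 2 or 3 without positive replicate 2 or 3 or without any of the negative replicates. Fasn, fatty acid synthase, had 184, 211 and 215 CPM in Tbr2-positive nuclei, against 361, 336 and 302 CPM in Tbr2-negative nuclei. The ranges were apart, by 1.4-fold between the nearest libraries (log2 fold change -0.71 ± 0.13, adjusted p = 0.00194). Fdft1, squalene synthase of the cholesterol pathway, averaged 169 ± 25.6 CPM in Tbr2-positive and 288 ± 27.9 CPM in Tbr2-negative nuclei. Fads3, a desaturase gene, was 4.26-fold lower at 8.05 ± 1.87 against 34.3 ± 5.74 CPM. The regulator gene Srebf1 was 2.07-fold higher. The desaturase gene Fads2 was 1.69-fold higher, at 98.9 ± 9.97 against 58.4 ± 9.9 CPM. The members of both lipid lists beyond the naming rule were chosen after their values were seen, to show the steps of each pathway.

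**Figure D4:**
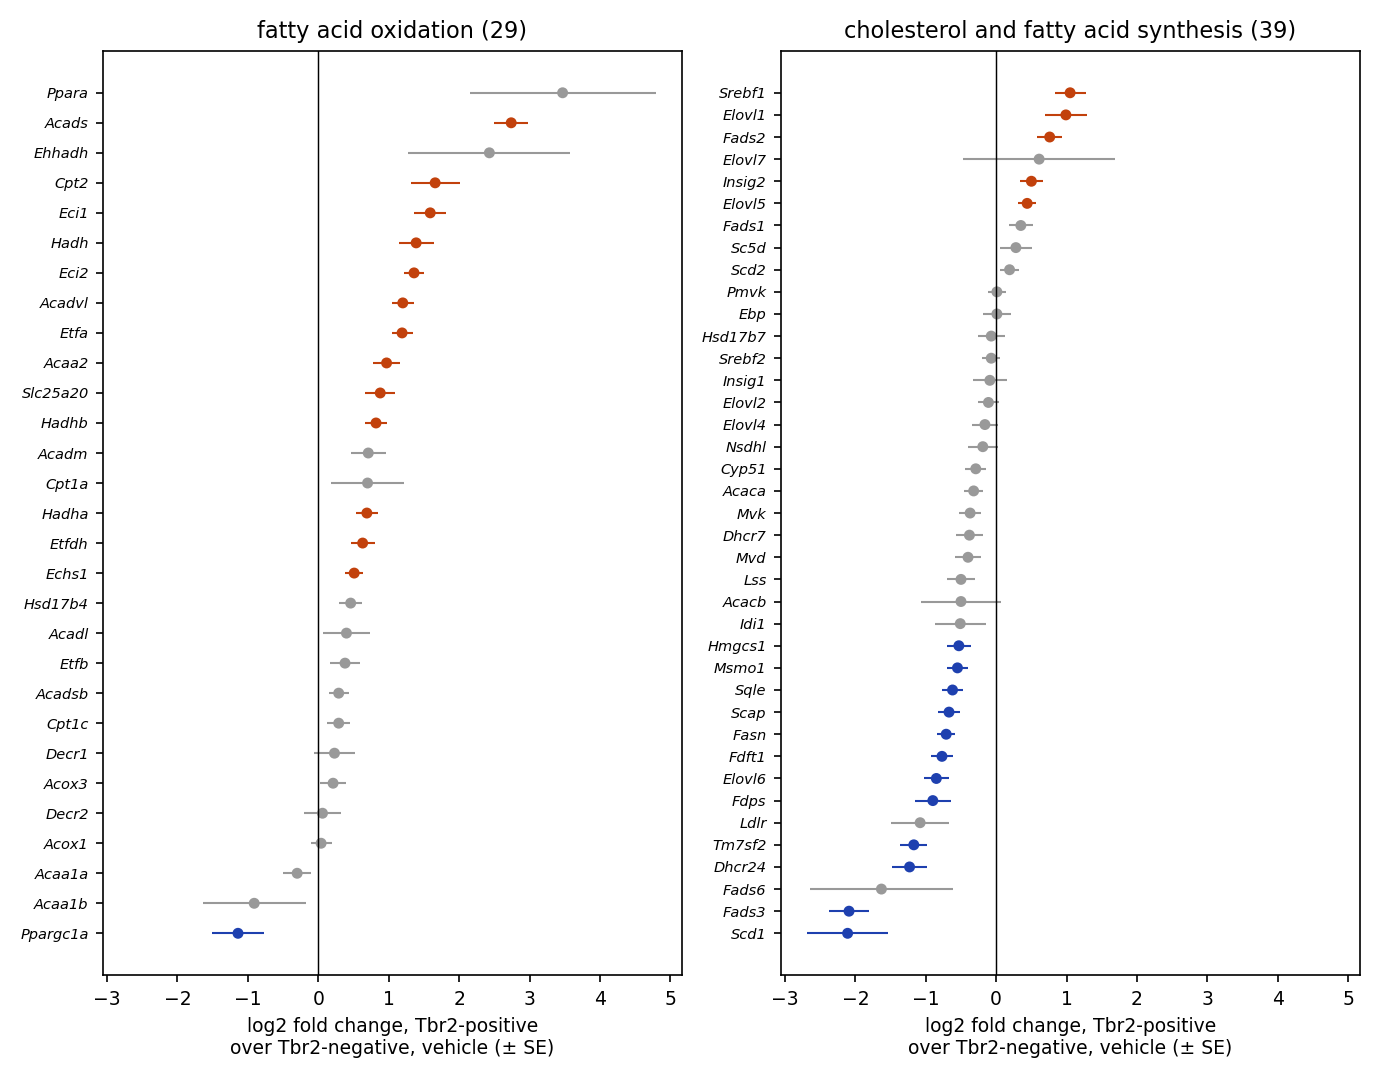
Log2 fold change of Tbr2-positive over Tbr2-negative vehicle nuclei, with its standard error, for the 29 fatty acid oxidation genes (left) and 39 of the 40 cholesterol and fatty acid synthesis genes (right) tested; orange marks genes called higher, blue lower and grey not called. On the left 13 genes are orange and 1 blue, and on the right 5 are orange and 12 blue.

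Lipid transporters included some of the largest differences. Abcd2, a transporter of very-long-chain fatty acids into peroxisomes, had 203, 175 and 193 CPM in Tbr2-positive nuclei, against 22.5, 20 and 17.1 CPM in Tbr2-negative nuclei. The lowest positive library was 7.77 times the highest negative one (log2 fold change 3.26 ± 0.16, adjusted p = 6.11e-07). Abca1, which exports cholesterol, averaged 156 ± 26.2 CPM in Tbr2-positive and 30.4 ± 10.3 CPM in Tbr2-negative nuclei. The related genes Abca8a and Abca8b were lower, at 1.53 ± 0.694 against 18 ± 3.61 CPM for Abca8a and 1.76 ± 1.01 against 8.84 ± 2.69 CPM for Abca8b. Abca8a and Abca8b are neighbours with similar sequences, so reads could be split between them. Slc30a10, an exporter of manganese, had 135, 100.3 and 134 CPM in Tbr2-positive nuclei, against 25.6, 19.9 and 26.9 CPM in Tbr2-negative nuclei (log2 fold change 2.35 ± 0.17, adjusted p = 5.71e-06). The potassium-chloride cotransporter gene Slc12a7 averaged 48 ± 11.1 CPM in Tbr2-positive and 11.7 ± 4.93 CPM in Tbr2-negative nuclei.

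Glycolysis had called members in both directions, 4 higher and 5 lower of 28 (32.1%), the lower count being 3 without any 1 of the 3 positive replicates or of negative replicates 2 and 3. The higher count was 2 without positive replicate 3, negative replicate 1 or negative replicate 3. Pfkp, the platelet form of phosphofructokinase that brain cells use, had 39.1, 57.3 and 24.3 CPM in Tbr2-positive nuclei, against 221, 277 and 271 CPM in Tbr2-negative nuclei. The lowest negative library was 3.86 times the highest positive one (log2 fold change -2.67 ± 0.36, adjusted p = 0.0002). The neuronal enolase gene Eno2 averaged 30.2 ± 3.39 CPM in Tbr2-positive and 68.1 ± 5.82 CPM in Tbr2-negative nuclei. Among glucose transporters, Slc2a1 was 2.06-fold higher, at 69.3 ± 9.77 against 33.7 ± 7.87 CPM, and the neuronal transporter gene Slc2a3 1.91-fold lower, at 24.2 ± 6.1 against 46.3 ± 6.98 CPM. The lactate dehydrogenase gene Ldhb averaged 307 ± 36.7 CPM in Tbr2-positive and 194 ± 28.6 CPM in Tbr2-negative nuclei.

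Enzymes that supply building blocks for DNA were called mostly in one direction. Of 35 nucleotide synthesis genes, 10 were higher and 3 lower, with 6 higher without positive replicate 2. Genes of both kinds of subunit of ribonucleotide reductase, which makes deoxynucleotides, were among them. Rrm1 averaged 283 ± 47.6 CPM in Tbr2-positive and 94.4 ± 15.5 CPM in Tbr2-negative nuclei (log2 fold change 1.59 ± 0.18, adjusted p = 7.37e-05), and Rrm2 averaged 134 ± 44.2 CPM in Tbr2-positive and 40 ± 5.85 CPM in Tbr2-negative nuclei. In the one-carbon list, 7 of 27 were higher, or 4 without positive replicate 2 or 3 or negative replicate 2 or 3. Gldc, the glycine decarboxylase that releases one-carbon units, had 42.3, 21.7 and 51.7 CPM in Tbr2-positive nuclei, against 10.9, 7.61 and 10.9 CPM in Tbr2-negative nuclei (log2 fold change 1.97 ± 0.30, adjusted p = 0.000476). Impdh1, the enzyme at the branch to guanine nucleotides, was lower, at 29.3 ± 2.53 against 58.4 ± 8.02 CPM.

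Genes for transmitter handling differed between glutamate and GABA. Slc17a6, the vesicular glutamate transporter VGLUT2, had 617, 522 and 694 CPM in Tbr2-positive nuclei, against 104, 94.2 and 62.6 CPM in Tbr2-negative nuclei. The lowest positive library was 5.03 times the highest negative one (log2 fold change 2.81 ± 0.20, adjusted p = 4.89e-06). Slc32a1, the vesicular transporter of GABA, had 0.421, 0.948 and 0.264 CPM in Tbr2-positive nuclei, against 5.49, 5.22 and 4.91 CPM in Tbr2-negative nuclei (log2 fold change -3.24 ± 0.50, adjusted p = 0.000556). Gad1, which makes GABA, averaged 21.9 ± 12.2 CPM in Tbr2-positive and 143 ± 15.7 CPM in Tbr2-negative nuclei.

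Among transcription factors, the proneural and NeuroD family of bHLH factors had 8 of 20 members higher and 3 lower. Nhlh1, a bHLH factor of newborn neurons, had 38, 19.5 and 38.1 CPM in Tbr2-positive nuclei, against 1.56, 2.02 and 1.85 CPM in Tbr2-negative nuclei. Replicate 2 was the lowest of the positive libraries and 9.65 times the highest negative one (log2 fold change 4.14 ± 0.37, adjusted p = 1.33e-05). Bhlhe22, a factor of postmitotic cortical neurons, was lower at 72.2 ± 8.51 against 179 ± 29.3 CPM, and Olig1, a factor of the oligodendrocyte lineage, lower at 3.42 ± 1.35 against 12.6 ± 3.84 CPM. Partners of these factors, the E-proteins, were higher: Tcf3 at 111 ± 13.3 against 50.1 ± 15.9 CPM and Tcf4 at 3680.3 ± 436 against 1822 ± 164 CPM. The inhibitor of bHLH factors Id4 was lower, at 24.7 ± 2.75 against 53.9 ± 11.4 CPM.

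Nuclear factor I proteins, which are known to drive differentiation of neural progenitors, had 3 of 4 genes higher. Nfib had 4755, 4044 and 5475 CPM in Tbr2-positive nuclei, against 1727, 2213 and 2335 CPM in Tbr2-negative nuclei. The ranges were apart, the nearest libraries differing 1.73-fold (log2 fold change 1.19 ± 0.17, adjusted p = 0.000259). Nfia averaged 653 ± 201 CPM in Tbr2-positive and 216 ± 14.3 CPM in Tbr2-negative nuclei, and Nfix 729 ± 133 CPM in Tbr2-positive and 367 ± 29.6 CPM in Tbr2-negative nuclei. Pax and Eya genes had 3 of 8 higher and none lower. Eya1, a coactivator with phosphatase activity, had 65.6, 48.8 and 39 CPM in Tbr2-positive nuclei, against 10.1, 7.77 and 2.82 CPM in Tbr2-negative nuclei (log2 fold change 2.89 ± 0.41, adjusted p = 0.000274), and Dach1, its partner in the retinal determination network known from Drosophila, averaged 31 ± 8.11 CPM in Tbr2-positive and 8.72 ± 2.04 CPM in Tbr2-negative nuclei.

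The factors that receive Wnt, Hippo and Hedgehog signals were higher where called. Of 17 Tead, Smad and Tcf-Lef genes, 5 were higher and none lower, or 3 higher without positive replicate 3 or negative replicate 1. Tead2, a partner of the Hippo coactivators, had 147, 133 and 160.3 CPM in Tbr2-positive nuclei, against 43, 31.5 and 37.1 CPM in Tbr2-negative nuclei (log2 fold change 1.98 ± 0.16, adjusted p = 8.4e-06). Tcf7l2, a Wnt effector that binds beta-catenin, had 19.9, 30.1 and 27 CPM in Tbr2-positive nuclei, against 6.51, 2.98 and 2.92 CPM in Tbr2-negative nuclei (log2 fold change 2.63 ± 0.35, adjusted p = 0.000206). The lowest positive library was 3.1 times the highest negative one for Tead2 and 3.06 times for Tcf7l2. The Hedgehog effectors Gli2 and Gli3 averaged 18.1 ± 3.52 CPM in Tbr2-positive and 4.29 ± 0.795 CPM in Tbr2-negative nuclei for Gli2 and 49.3 ± 6.55 CPM in Tbr2-positive and 18.4 ± 1.69 CPM in Tbr2-negative nuclei for Gli3. They were the only 2 called of 11 Gli, Zic and Glis genes. Stat3, which carries cytokine signals, was 3.6-fold higher at 72.9 ± 24.3 against 20.2 ± 6.53 CPM. Of 21 Stat, Irf and NF-kB genes, 2 were higher (9.52%) and none lower, and the share higher was near the 9.96% of all genes tested.

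Among homeobox genes, those of the dorsal and ventral telencephalon took opposite directions in the examples below. Emx1 and Emx2, factors of the dorsal telencephalon, averaged 67.5 ± 19.9 CPM in Tbr2-positive and 15.2 ± 2.48 CPM in Tbr2-negative nuclei for Emx1 and 38.6 ± 12.7 CPM in Tbr2-positive and 8.73 ± 2.25 CPM in Tbr2-negative nuclei for Emx2. Lhx9 had 132, 59.3 and 143 CPM in Tbr2-positive nuclei, against 17.9, 15.3 and 31.2 CPM in Tbr2-negative nuclei (log2 fold change 2.38 ± 0.33, adjusted p = 0.000251). Lhx2, the cortical selector gene, averaged 182 ± 44.5 CPM in Tbr2-positive and 58.1 ± 5.08 CPM in Tbr2-negative nuclei. On the ventral side, Lhx6, a factor of interneurons from the medial ganglionic eminence, had 13.6, 21 and 9.51 CPM in Tbr2-positive nuclei, against 78.5, 71.7 and 67 CPM in Tbr2-negative nuclei (log2 fold change -2.30 ± 0.27, adjusted p = 7.26e-05). Dlx1 averaged 26.6 ± 15.4 CPM in Tbr2-positive and 114 ± 16.3 CPM in Tbr2-negative nuclei. Isl1, a factor of striatal and cholinergic neurons, averaged 8.2 ± 1.4 CPM in Tbr2-positive and 26.3 ± 3.63 CPM in Tbr2-negative nuclei. Dlx1 and Lhx6 are among the interneuron markers whose sums were given above.

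Several zinc finger factors stood at high levels in one population. Zbtb20, a repressor known from hippocampal and cortical progenitors, had 2398, 1769.6 and 2438 CPM in Tbr2-positive nuclei, against 520.1, 531 and 539 CPM in Tbr2-negative nuclei. Negative libraries were nearly equal, and the lowest positive one was 3.29 times the highest of them (log2 fold change 2.06 ± 0.19, adjusted p = 1.83e-05). Klf3 averaged 183 ± 13.5 CPM in Tbr2-positive and 40.7 ± 12.2 CPM in Tbr2-negative nuclei, and Myt1, a factor that represses Notch targets, 199.5 ± 33.6 CPM in Tbr2-positive and 49.1 ± 5.16 CPM in Tbr2-negative nuclei. Mef2c, an activity-regulated factor of neurons that is not a zinc finger protein, was lower. It had 206, 343 and 142 CPM in positive and 939, 1249 and 954 CPM in negative libraries. Of 369 numbered Zfp genes tested, many of them KRAB repressors of transposable elements, 53 were higher and 11 lower, with a median of 0.20. The lower count was 7 without positive replicate 2 and 22 with DESeq2, and the higher count 38 to 58 over all leave-one-out fits. Many of these genes are near-identical copies, so reads could be split between them.

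The bZIP factors had members in both directions. Nfe2l3, a cap'n'collar factor, had 8.34, 13.9 and 6.65 CPM in Tbr2-positive nuclei, against 92.4, 91.2 and 104 CPM in Tbr2-negative nuclei. The lowest negative library was 6.56 times the highest positive one (log2 fold change -3.31 ± 0.28, adjusted p = 1e-05). Its relative Nfe2l2, which activates antioxidant genes, took the opposite direction at 19.3 ± 3.57 CPM in Tbr2-positive and 6.3 ± 1.87 CPM in Tbr2-negative nuclei. Maf, a factor of interneurons and microglia, averaged 6.36 ± 1.96 CPM in Tbr2-positive and 50 ± 11.5 CPM in Tbr2-negative nuclei. Among nuclear receptors, 9 of 36 were lower and 3 higher. Nr4a2, a factor of claustrum and deep-layer neurons, averaged 16.3 ± 6.88 CPM in Tbr2-positive and 64.6 ± 7.3 CPM in Tbr2-negative nuclei, and Nr1h2, a liver X receptor that senses oxysterols, was higher at 124 ± 15.5 against 62.4 ± 15.8 CPM.

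Regulators of splicing and translation were also called in both directions. Ptbp1, the repressor of neuronal exons in progenitors, had 85.2, 100.3 and 116 CPM in Tbr2-positive nuclei, against 42.3, 42.7 and 35.6 CPM in Tbr2-negative nuclei (log2 fold change 1.32 ± 0.21, adjusted p = 0.000725). Rbfox1, a splicing factor of mature neurons, had 53.6, 83.7 and 52.4 CPM in Tbr2-positive nuclei, against 139.6, 186 and 142 CPM in Tbr2-negative nuclei (log2 fold change -1.30 ± 0.19, adjusted p = 0.000427). Elavl2 and Elavl4, neuronal proteins that stabilise transcripts, were higher, at 874 ± 78.8 against 335 ± 24.6 CPM for Elavl2 and 825 ± 199.8 against 291 ± 60.2 CPM for Elavl4. Celf6 was lower, at 7.45 ± 2.81 against 22.3 ± 1.77 CPM.

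Of 1379 long noncoding RNA genes tested, 91 (6.6%) were higher and 102 (7.4%) lower. Of 14377 protein-coding genes, 1797 (12.5%) were higher and 1915 (13.3%) lower. None of 92 snoRNA or 45 snRNA genes was called, in libraries whose preparation kit is made for polyadenylated RNA. The kit does not mark strand, so reads of overlapping genes on opposite strands cannot be told apart. Mir99ahg, a transcript that hosts microRNAs and is spread over a long locus, had 6656, 5429 and 4658 CPM in Tbr2-positive nuclei, against 1516, 1366 and 1197 CPM in Tbr2-negative nuclei. Its lowest positive library was 3.07 times its highest negative library (log2 fold change 2.04 ± 0.18, adjusted p = 1.21e-05). Firre, a nuclear RNA of the X chromosome that organises chromatin contacts, averaged 96.6 ± 16.1 CPM in Tbr2-positive and 30.9 ± 11.9 CPM in Tbr2-negative nuclei, and Snhg18 28.6 ± 4.93 CPM in Tbr2-positive and 4.56 ± 2.58 CPM in Tbr2-negative nuclei. Emx2os, which overlaps Emx2 on the opposite strand and moved with it, averaged 14.3 ± 2.03 CPM in Tbr2-positive and 4.95 ± 2.62 CPM in Tbr2-negative nuclei. Dlx6os1, the opposite-strand RNA at the Dlx5 and Dlx6 locus, had 15.7, 23.8 and 15.9 CPM in Tbr2-positive nuclei, against 97.6, 104 and 60.7 CPM in Tbr2-negative nuclei (log2 fold change -2.24 ± 0.23, adjusted p = 3e-05).

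The maternally expressed RNAs of the imprinted Dlk1 to Dio3 region on chromosome 12 were lower together. Meg3 had 225, 279 and 143 CPM in Tbr2-positive nuclei, against 923, 1125 and 1229 CPM in Tbr2-negative nuclei (log2 fold change -2.34 ± 0.37, adjusted p = 0.000611). Rian had 31.9, 32.5 and 22.1 CPM in Tbr2-positive nuclei, against 142, 239 and 175 CPM in Tbr2-negative nuclei (log2 fold change -2.68 ± 0.24, adjusted p = 1.21e-05). Mirg had 1.85, 1.98 and 0.616 CPM in Tbr2-positive nuclei, against 18.2, 17 and 16.4 CPM in Tbr2-negative nuclei (log2 fold change -3.53 ± 0.42, adjusted p = 9.2e-05). The lowest negative library was 3.3 times the highest positive one for Meg3, 4.37 times for Rian and 8.28 times for Mirg. Snhg14, a paternally expressed imprinted RNA on chromosome 7, was 2.03-fold lower at 186 ± 22.5 against 378 ± 45.2 CPM. Imprinted genes as a list had 13 of 45 lower and 3 higher. The higher count was 1 without positive replicate 1, negative replicate 1 or negative replicate 3. The lower count was 8, 7 and 8 without positive replicate 1, positive replicate 3 and negative replicate 2. The paternally expressed silencing RNA gene Kcnq1ot1 was called higher, at 1012 ± 110.5 against 612 ± 185 CPM, a call that did not hold without positive replicate 1 or 3 or negative replicate 1 or 3 (adjusted p = 0.0616, 0.0644, 0.0707 and 0.0697). Grb10, a growth-suppressing adaptor, had 172, 148 and 182 CPM in Tbr2-positive nuclei, against 44.6, 33.8 and 43.2 CPM in Tbr2-negative nuclei (log2 fold change 2.04 ± 0.18, adjusted p = 1.21e-05).

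MicroRNA host genes were called in both directions. Mir9-3hg had 133, 116 and 153 CPM in Tbr2-positive nuclei, against 85.7, 49.8 and 50.1 CPM in Tbr2-negative nuclei (log2 fold change 1.11 ± 0.21, adjusted p = 0.0023). The hosts of miR-124, the microRNA of differentiated neurons, were lower: Mir124-2hg had 149.5, 176 and 141 CPM in positive and 404, 439 and 431 CPM in negative libraries, and Mir124a-1hg had 108, 96.4 and 89.6 CPM in positive and 235, 195 and 230.3 CPM in negative libraries. Dleu2, the host of miR-15a and miR-16, had 324, 247 and 214 CPM in Tbr2-positive nuclei, against 119, 70.7 and 64.6 CPM in Tbr2-negative nuclei (log2 fold change 1.62 ± 0.27, adjusted p = 0.000914). These counts are reads of long host RNAs and say nothing of the mature microRNAs, which were not measured. The mature sequences below lie, by RefSeq coordinates on GRCm38.p6, within hosts that differed, and are shown because the host is the transcript that is processed into them. Dleu2 and Meg3 were chosen for this after their values were seen. Capitals mark the seed, bases 2 to 8, which pairs with target RNAs.
miR-9-5p (Mir9-3hg): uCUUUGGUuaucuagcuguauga
miR-15a-5p (Dleu2): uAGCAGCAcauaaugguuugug
miR-16-5p (Dleu2): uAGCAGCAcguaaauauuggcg
miR-370-3p (Rian): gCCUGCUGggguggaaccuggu
miR-154-5p (Mirg): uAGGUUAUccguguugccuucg
miR-377-3p (Mirg): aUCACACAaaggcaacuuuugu
miR-409-3p (Mirg): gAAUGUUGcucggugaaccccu
miR-770-5p (Meg3): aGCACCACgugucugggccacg
In this set, miR-15a-5p and miR-16-5p of Dleu2 share 1 seed, and the other 6 seeds differ from it and from each other. On the plus strand, miR-9-5p lies at chr7:79505279-79505301, miR-770-5p at chr12:109563710-109563731, miR-370-3p at chr12:109618305-109618326, miR-154-5p at chr12:109738438-109738459, miR-377-3p at chr12:109740553-109740574 and miR-409-3p at chr12:109743204-109743225. On the minus strand, miR-15a-5p lies at chr14:61632075-61632096 and miR-16-5p at chr14:61631936-61631957.

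**Figure D5:**
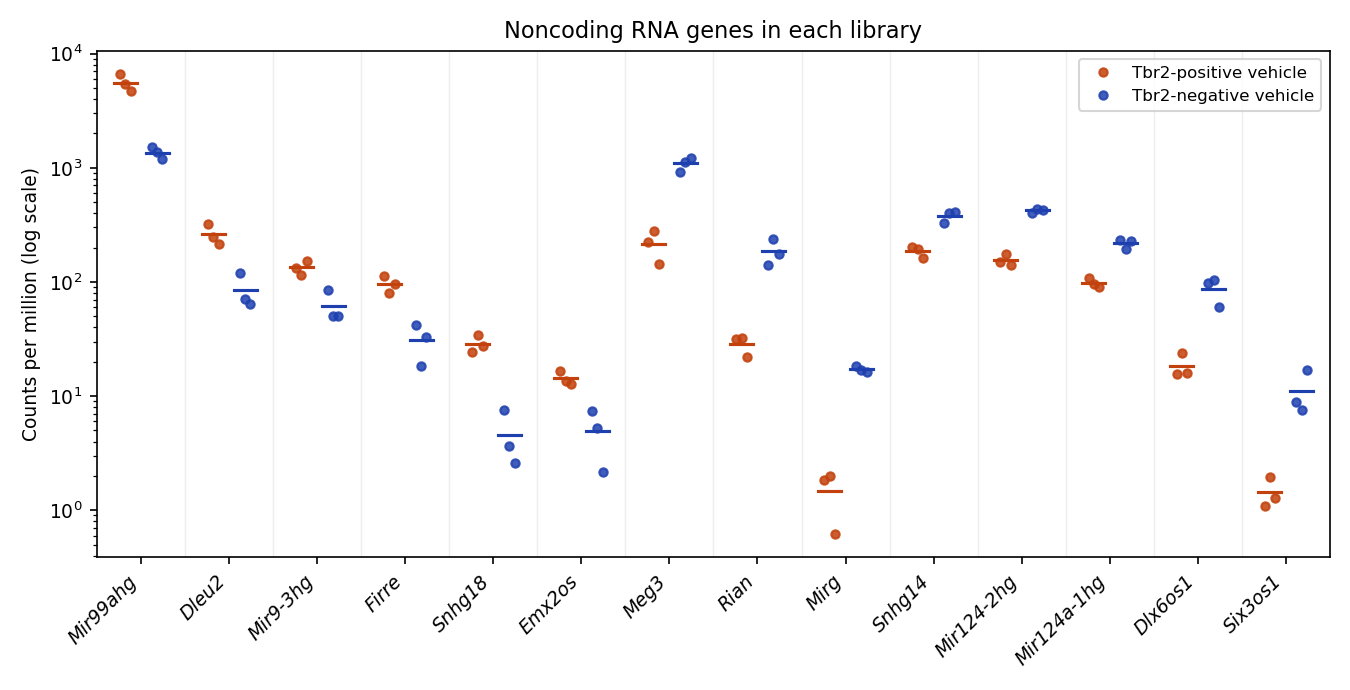
CPM (log scale) of 14 noncoding RNA genes in each vehicle library; in each column the 3 Tbr2-positive libraries stand left of the 3 Tbr2-negative ones, and bars mark means. The ranges are apart for each gene, with Mir99ahg to Emx2os higher and Meg3 to Six3os1 lower in Tbr2-positive nuclei.

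Motor proteins of the kinesin family were higher in 14 of 38 cases and lower in 5, or 3 lower without positive replicate 1 or 3. Kif26b, a kinesin-like protein of cell polarity, had 86, 77.1 and 93.8 CPM in Tbr2-positive nuclei, against 25.9, 31.6 and 10.8 CPM in Tbr2-negative nuclei (log2 fold change 1.91 ± 0.31, adjusted p = 0.000849). Kif20a and Kif2c, both of the mitotic spindle, averaged 24.1 ± 7.27 CPM in Tbr2-positive and 6.95 ± 1.33 CPM in Tbr2-negative nuclei for Kif20a and 37.8 ± 14.1 CPM in Tbr2-positive and 9.55 ± 4.54 CPM in Tbr2-negative nuclei for Kif2c. Kif26a was lower, at 10.6 ± 3.18 against 40.5 ± 5.37 CPM. Rnd2, a small GTPase required for radial migration in the mouse cortex, had 260.0, 256 and 342 CPM in Tbr2-positive nuclei, against 59.2, 58.6 and 66.9 CPM in Tbr2-negative nuclei. The lowest positive library was 3.82 times the highest negative one (log2 fold change 2.22 ± 0.17, adjusted p = 5.71e-06). The guanine nucleotide exchange factor gene Dock9 had 10.6, 16.2 and 5.9 CPM in Tbr2-positive nuclei, against 93, 95.8 and 104 CPM in Tbr2-negative nuclei (log2 fold change -3.16 ± 0.29, adjusted p = 1.54e-05).

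Acetylation of histone H3 at lysine 9, a mark of active gene starts, was compared as presence of the authors' peaks, called per library, within 1 kb of the start. Of 1543 genes called higher that have a RefSeq start, 95.7% held a peak in all 3 Tbr2-positive libraries and 94.3% in all 4 Tbr2-negative ones. Of 1545 genes called lower, these shares were 89.6% and 93.3%, and of all 12578 genes with a start 85.5% and 86%. No library held a peak at 2.59% of genes called higher, 4.14% of those called lower and 7.76% of all. Zbtb20 also held none in any library, despite the RNA levels given above. A missing peak in this window therefore does not show that a gene lacked the mark. A peak in every positive and no negative library was found at 2 genes called higher, Neurod4 and Gm28209, and at 1 called lower, Mlc1. A peak in every negative and no positive library was found at 21 genes called lower and 2 called higher, Bhlhe23 and Ihh. Over all genes with a start these patterns held for 11 and 52 genes. These counts were small and moved with single libraries: the 2 higher genes of the first pattern became 4 without negative replicate 2 or 4 of the acetylation libraries, the 1 lower gene became 2 without positive replicate 2, and the 2 higher genes of the other pattern became 4 without positive replicate 3. The 21 genes became 46 when peaks needed a −log10 q value of at least 5, and 12 with a window of 5 kb. Genes named from these counts were chosen after their values were seen. Bhlhe23 and Ihh were at low levels, averaging 0.677 and 0.772 CPM in Tbr2-positive nuclei. Among the 21 were Slc32a1, the interneuron factor gene Sp9, the growth factor receptor gene Pdgfra of oligodendrocyte precursors, and Six3os1. Sp9 averaged 2.19 ± 0.742 CPM in Tbr2-positive and 10.5 ± 0.51 CPM in Tbr2-negative nuclei, and Pdgfra 3.03 ± 1.57 CPM in Tbr2-positive and 14.8 ± 2.96 CPM in Tbr2-negative nuclei.

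The 2 windows below show a start of each kind, where the peak and the higher RNA level were in the same population, from 250 bases before to 50 bases after the start. Neurod4, a bHLH factor of committed progenitors, had 138, 93.6 and 129.7 CPM in Tbr2-positive nuclei, against 5.41, 4.42 and 1.48 CPM in Tbr2-negative nuclei, and its window is chr10:130280089-130280388 on the minus strand. The window of Slc32a1 is chr2:158610508-158610807 on the plus strand. Capitals mark matches on either strand to the E-box motif CAGATG, to its variant CAGCTG or to its variant CACCTG.
Neurod4: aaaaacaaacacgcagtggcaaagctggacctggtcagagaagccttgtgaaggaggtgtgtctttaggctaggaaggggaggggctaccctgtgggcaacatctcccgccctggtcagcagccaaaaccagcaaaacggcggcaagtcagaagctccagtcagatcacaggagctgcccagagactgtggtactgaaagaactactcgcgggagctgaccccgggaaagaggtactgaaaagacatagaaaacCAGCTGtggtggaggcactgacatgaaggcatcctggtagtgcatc
Slc32a1: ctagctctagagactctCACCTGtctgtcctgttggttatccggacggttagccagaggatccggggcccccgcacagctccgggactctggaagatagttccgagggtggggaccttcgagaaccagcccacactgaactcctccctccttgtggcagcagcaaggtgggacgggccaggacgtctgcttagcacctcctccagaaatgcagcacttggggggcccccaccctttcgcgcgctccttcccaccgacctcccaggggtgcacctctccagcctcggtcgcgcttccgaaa
The Neurod4 window holds 1 CAGCTG and the Slc32a1 window 1 CACCTG. RefSeq, the source of both windows on GRCm38.p6, lists another Neurod4 start upstream, whose window holds none of the 3. A gene was counted for a motif when any of its RefSeq starts had a match, so genes with more starts had more windows. The number of starts per gene was not compared between the groups. Over promoters of this length with 1 or more matches on either strand, CACCTG was present for 18.3% of genes called higher, 27.1% of those called lower and 21.4% of all tested, and CAGATG, the motif of Neurogenin and NeuroD factors, for 14.7%, 15.9% and 14.5%. CCAAT, the box bound by NF-Y, was present for 51.7% of genes called higher, 39.3% of those called lower and 42.4% of all tested. In all, 11 motifs were counted on both strands, each with the share for genes called higher, called lower and tested. The E-box CAGCTG was present for 19.3%, 22.2% and 18.6%, and the E-box CACGTG for 10%, 10.2% and 11%. The nuclear factor I core site TTGGCA was present for 14.6%, 14.9% and 13.8%, and the TATA box TATAAA for 9.33%, 9.64% and 9.44%. TTTGAA, part of the Tcf and Lef motif, was present for 18.2%, 13.7% and 14.6%. GATTGGCC, which holds the CCAAT box on its other strand, was present for 4.73%, 2.59% and 3.19%. The T-box motif GGTGTGA was present for 3.24%, 4.27% and 4.25%, and its longer form AGGTGTGA for 0.778%, 1.55% and 1.06%. A match is a run of letters and not evidence of binding.

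The same difference between populations was read from the 4 libraries treated with TSA, which entered the vehicle contrast through the low-count filter, the scaling and the estimate of spread but not through its group means. Of 1999 genes called higher in vehicle, 1927 (96.4%) were higher in Tbr2-positive nuclei under TSA as well, where 47.9% of all genes tested were higher. Of 2304 called lower, 2231 (96.8%) were lower, against 51.6% of all genes. For Lama2 the log2 fold change under TSA was 3.15 ± 0.26, for Acads 2.36 ± 0.29, for Abcd2 2.35 ± 0.19 and for Grm5 -2.31 ± 0.49. A direct test asked whether the difference between populations itself differed between TSA and vehicle. It called 0 of 20078 genes (0.0%) with edgeR at adjusted p below 0.05, and 12 with DESeq2. At unadjusted p below 0.05 edgeR gave 1103 genes (5.49%), and a share near 0.05 arises at this threshold when no gene differs. With 2 TSA libraries per population, real differences could be missed.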

How the data were processed

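The deposited files hold, per library, whole-number read counts per Ensembl gene, which the authors made, and for H3K9ac a peak list per library. Per the file headers, peaks were called with MACS 2.1.0.20140616 at a q value threshold of 0.1, and each peak carries a deposited −log10 q value. Per the submitters' processing notes the build was mm10 and SAMtools and MACS2 were used, while for the aligner, the counting program and the annotation a name is not given in the sources used here. Per the labels' protocols the RNA kit was TruSeq RNA v2, which does not mark strand.

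The counts of all 10 RNA libraries in their 4 groups were fitted together with edgeR 4.0.16 in R 4.3.3 (low-count filter by group, TMM scaling, robust quasi-likelihood test), and the vehicle difference between populations was the contrast tested. CPM values use the TMM-scaled totals. Positions of starts, promoters and microRNAs came from RefSeq tables (GRCm38.p6), which matched 35243 of 48709 identifiers. Alternatives were RLE scaling, no filter, DESeq2 1.42.0, replicate number as a block, the 6 vehicle libraries alone and each library left out; for peaks, a −log10 q value of at least 5, a window of 5 kb and each library left out. On simulated counts for this contrast (19304 genes), 18 of 96 genes changed 2-fold and 56 of 94 changed 4-fold were recovered, with 10 unchanged genes called.

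The 89 gene lists and the members were chosen with earlier results of these data known. Named were Eomes; from each list up to 3 called genes per direction with the largest change, with at least 2 CPM in the higher population and ranges apart; the 10 largest per direction in no list with at least 10 CPM; and the 8 largest noncoding genes per direction. Not each of these is described. Of the names in the lists, 13 matched no gene in the files. Changes with TSA within a population and the heights of acetylation peaks were not analysed here. A few genes and 1 gene list are not reported here.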

Additional observations from a re-analysis of the deposited data

How the results depend on the processing

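The 4303 calls became 4301 with RLE scaling, 4354 without the low-count filter, 4475 with the 6 vehicle libraries alone and 5388 with DESeq2, and 3186 to 4495 when 1 library was left out. In each of these settings, no gene called in both had the opposite sign. Of the 4303, 2552 kept their call without each library in turn. With replicate number as a block the count was 4823. Same-numbered libraries deviated together with correlations of 0.099, 0.081 and 0.099, against -0.078 to -0.015 for the other pairs. As none of the 3 was above 0.1, the limit used for pairing, the numbers were not taken to pair the samples, although each library correlated best with its own number, a hint from the data and not from the design. Counts of list members moved by over 1.5 times in 42 list values without negative replicate 3, 39 without positive replicate 3, 28 with DESeq2 and 1 with RLE scaling. The test of whether the population difference changed with TSA called 0 genes with edgeR, and 8 higher and 4 lower, 12 in all, with DESeq2. For H3K9ac, a −log10 q value of at least 5 moved the genes with a peak in every positive and no negative library to 5 called higher and 0 called lower, and those with the reverse pattern to 46 called lower. A window of 5 kb gave 1 called higher with the first pattern, and 0 called higher and 12 called lower with the reverse one. Leaving out 1 acetylation library gave 2 to 4 called higher and 1 to 2 called lower with the first pattern, and 2 to 4 called higher and 21 to 28 called lower with the reverse one. The cause was not tested. In the simulated counts, 18 of 96 genes changed 2-fold were recovered. Only 96 and 94 of 19304 genes were changed there, against 4303 of 20078 called in the data. The adjustment over all genes is stricter when fewer genes differ, so the share recovered in the data cannot be read from the simulation.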

Other observations

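Protein-coding genes called lower in Tbr2-positive nuclei spanned a median of 47.2 kb between their RefSeq ends, against 27.6 kb for those called higher and 24.9 kb for all 14377 tested. A span over 100 kb was found for 31.4% of genes called lower, 16.4% of those called higher and 15.5% of all. Of 3174 tested genes that had no row in the RefSeq table, 94 were higher and 272 lower. Of 43 microRNA genes listed by their own symbol, 2 were higher and 0 lower. These spans include introns and are not the lengths of the transcripts. The part of gene span or transcript length in these shares was not tested.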
